A study of Mus musculus with 6 samples.

Results

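The genes described here build the ribbon synapse of the rod photoreceptor, meaning its active zone, its calcium channel and a trans-synaptic partner of that channel. They are Ctbp2, Bsn, Pclo, Rims2, Erc2, Cacna1f, Cacna2d4, Cacnb2, Cabp4 and Elfn1, 10 of the 52143 genes in the deposited gene table. They were chosen by name, with copies on patch sequences set aside, and their 92 annotated transcripts were taken from the transcript table of 136550. The study electroporated mouse retinas on postnatal day 0 and sorted green rods by flow cytometry on postnatal day 10. Full-length cDNA came from the SMART-seq v4 kit for low input, followed by Nextera XT, with 3 libraries in each group. One group, called Jun knockdown, carried a short hairpin RNA (shRNA) plasmid against Jun, a transcription factor of the AP-1 family. The control group carried the pLKO.1-Scrambled plasmid. Both shRNA plasmids were given at 2.5 µg/µl in 0.4 µl, and both groups also carried Nrlp-EGFP at 1.5 µg/µl, in which the Nrl promoter drives the green marker in rods. Strain, sex and the number of animals per library are not in the labels, so p-values measure the spread between libraries, part of which may be technical.

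Rods release glutamate continuously in darkness, and a ribbon that tethers synaptic vesicles beside the calcium channels serves this tonic release. RIBEYE, the main ribbon protein, is made from an alternative start of Ctbp2, a gene that also encodes a nuclear corepressor. Bassoon (Bsn) anchors the ribbon to the presynaptic membrane, and Piccolo (Pclo), RIM2 (Rims2) and the ELKS protein CAST (Erc2) organise the active zone. The L-type channel Cav1.4 has its pore subunit from Cacna1f and auxiliary subunits from Cacna2d4 and Cacnb2, and CaBP4 (Cabp4) is a calcium-binding protein that modulates its gating. ELFN1 (Elfn1) reaches across the cleft to the glutamate receptor mGluR6 of rod bipolar cells, and the human counterparts of Cacna1f, Cacna2d4 and Cabp4 are genes of inherited retinal disease.

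Counts per library were 13211279, 13325501 and 13998395 in Jun knockdown and 46239299, 105800769 and 32150086 in controls, so depth and group cannot be told apart. Jun, the targeted gene, stood at 1.82, 17.4 and 19.1 CPM (TMM-normalised counts-per-million) in the Jun knockdown libraries, below the controls in replicate 1 alone, against 6.4, 5.79 and 7.09 CPM in controls (a difference of 0.99 on the log2 scale, SE 1.44, edgeR adjusted p = 0.764). Its mean was thus not lower where the label says knockdown, and every comparison here is by label. All 16 rod markers were detected in both groups, and their summed level was 35300 to 54100 CPM in Jun knockdown and 148000 to 157000 CPM in controls, with 12 of the 16 past the test as lower. Other marker sums that did not overlap were horizontal cell (122 to 186 CPM in Jun knockdown, 17.7 to 75.7 CPM in controls, 0 of 3 past the test, Lhx1 at 0 in Jun knockdown), Müller glia (330 to 389 CPM in Jun knockdown, 1820 to 2210 CPM in controls, 0 of 12 past the test) and microglia (14.8 to 48.1 CPM in Jun knockdown, 877 to 1230 CPM in controls, 4 of 11 past the test as lower). Bipolar cell markers, whose cells also use several of the 10 genes, summed to 1250 to 2170 CPM in Jun knockdown and 1120 to 1260 CPM in controls, with Prkca higher and Sebox lower among 14 tested. In Jun knockdown most of the horizontal cell sum was Prox1, at 117, 77.6 and 153 CPM in Jun knockdown and 26.5, 9.19 and 28.8 CPM in controls, while Calb1 was at 0, 0.391 and 0.324 CPM in Jun knockdown and 7, 0.198 and 1.78 CPM in controls. Most of the Müller glia sum in controls was Clu, at 124, 158 and 9.38 CPM in Jun knockdown and 1220, 1190 and 1150 CPM in controls. Hes1, Aqp4, Sox9 and Slc1a3 had higher means in Jun knockdown, and the other Müller glia markers had lower ones. The part of these differences in the results below was not tested. In bulk RNA, fewer cells of a type and less RNA per cell cannot be told apart.

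Ctbp2 was the member in which the annotated start separates a synaptic from a nuclear product, so its sequences are shown first. The window around the RefSeq start of the ribbon form (250 bases before to 50 after, RefSeq, GRCm38.p6, chr7:133015198-133015497, minus strand) reads as follows, with GGATTA, the core letters read by CRX and OTX homeobox factors of photoreceptors, in capitals.

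Ctbp2 ribbon start: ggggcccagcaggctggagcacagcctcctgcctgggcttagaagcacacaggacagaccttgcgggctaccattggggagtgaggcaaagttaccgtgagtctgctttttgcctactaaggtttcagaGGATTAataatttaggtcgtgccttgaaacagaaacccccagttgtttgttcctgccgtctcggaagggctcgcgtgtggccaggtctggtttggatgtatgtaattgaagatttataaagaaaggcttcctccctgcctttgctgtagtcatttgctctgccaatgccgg

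Transcript models Ctbp2-206 and Ctbp2-214 start within this window in GENCODE vM21. The start of the coding sequence in 3 models follows (GENCODE vM21, chromosome 7, minus strand), each within its first coding exon and with the start codon in capitals. Ctbp2-214 is the ribbon form, Ctbp2-201 the longer corepressor form and Ctbp2-209 the model that took most counts here.

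Ctbp2-214: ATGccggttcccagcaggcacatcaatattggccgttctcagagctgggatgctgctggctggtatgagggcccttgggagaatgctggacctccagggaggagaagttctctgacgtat
Ctbp2-201: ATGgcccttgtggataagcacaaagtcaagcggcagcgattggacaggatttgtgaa
Ctbp2-209: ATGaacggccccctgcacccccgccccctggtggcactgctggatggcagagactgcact

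The ribbon form encodes 988 amino acids, against 445 for Ctbp2-201 and 420 for Ctbp2-209, and 1687 of its 2964 coding bases lie in its own first coding exon. The rest is read from exons shared with the corepressor models.

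The promoter table held 9 windows for 7 of the 10 genes. Each window was searched on both strands for TGANTCA (the AP-1 site to which Jun binds with its partners), TGACGTCA (the CRE), GGATTA (CRX and OTX) and the NRL/MAF element, and no window held more than 1 match. TGANTCA was in 1 of 9 windows, that of Erc2, against 7.81% of 32851 windows of all genes. GGATTA was in 1 of 9, the ribbon window above, against 7.06%. TGACGTCA and the NRL/MAF element were in 0 of 9, against 1.79% and 0.314%. The Erc2 window (RefSeq, GRCm38.p6, chr14:27622157-27622456, plus strand) is shown because it holds the one AP-1 match, in capitals, 51 bases before the start.

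Erc2 start: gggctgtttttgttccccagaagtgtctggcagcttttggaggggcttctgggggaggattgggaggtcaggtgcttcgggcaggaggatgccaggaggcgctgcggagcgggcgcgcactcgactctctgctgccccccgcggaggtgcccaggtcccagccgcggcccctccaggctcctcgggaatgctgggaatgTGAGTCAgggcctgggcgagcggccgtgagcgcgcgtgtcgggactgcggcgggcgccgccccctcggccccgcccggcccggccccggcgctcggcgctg

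All 10 genes had enough counts to be tested with edgeR's quasi-likelihood test, adjusted by Benjamini-Hochberg over 12815 genes. At an adjusted p of 0.05, 0 of the 10 passed (1.67% of all tested genes did), 0 as lower (1.35%) and 0 as higher (0.32%). At an unadjusted p of 0.05, 3 of the 10 passed, namely Rims2, Cabp4 and Elfn1, against 16.8% of all genes. The groups did not overlap in 4 members, against 28.3% of all genes: Rims2 was the 1 higher in every Jun knockdown library (12.6% of all genes) and Cacna2d4, Cabp4 and Elfn1 were the 3 lower in every one (15.7%). The fold change was positive in 7 members and negative in 3, with a median of 0.25 on the log2 scale beside -0.12 over all tested genes. The split was 5 and 5 with limma-voom and without control replicate 1 or 3. With DESeq2 the medians were 0.34 in members and 0.38 over all genes. Among protein-coding genes spanning 59.4 to 2270 kb, as all members except Cacna1f and Cabp4 do, the edgeR median was 0.39. The count at an unadjusted p of 0.05 was 1 when any of the 3 controls, Jun knockdown replicate 1 or Jun knockdown replicate 2 was left out, and 4 without Jun knockdown replicate 3.

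**Figure D1:**
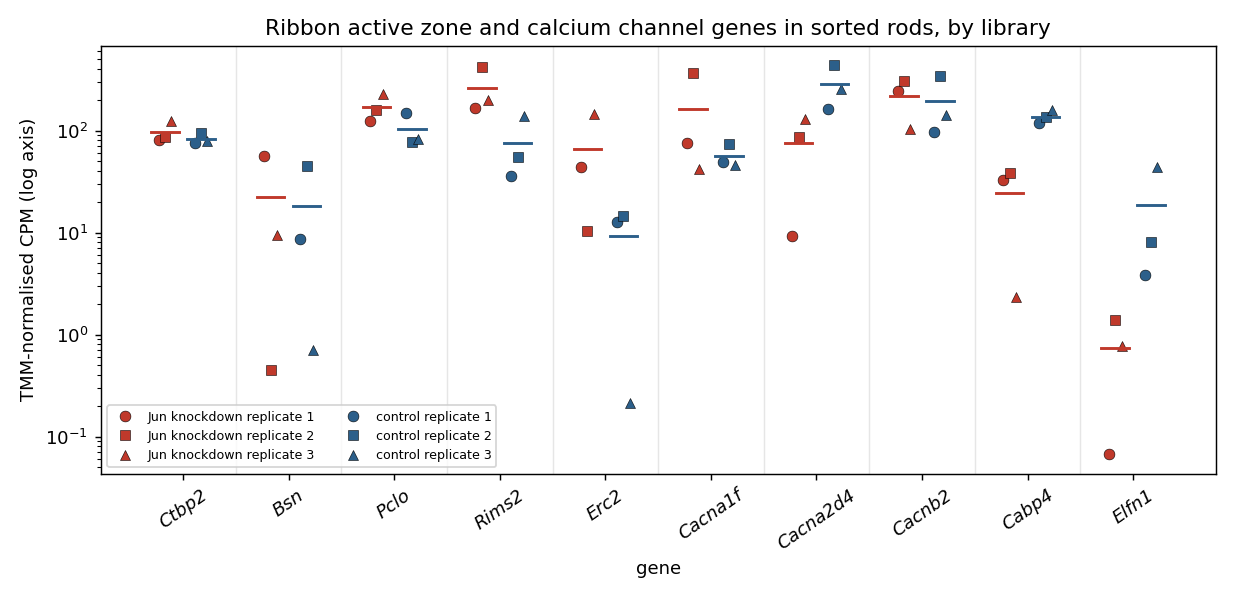
TMM-normalised CPM (log axis) of each gene in each library, with Jun knockdown in red left of control in blue, 1 symbol per replicate number and a bar at each group mean. Cacna2d4, Cabp4 and Elfn1 lie lower in all 3 Jun knockdown libraries and Rims2 higher, while the other 6 genes overlap.

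Ctbp2, the ribbon gene (ENSMUSG00000030970, chromosome 7, 132987563 to 133124354, minus strand), stood at 80.1, 86.6 and 124 CPM in Jun knockdown libraries 1 to 3, against 75.6, 95.7 and 79.5 CPM in controls. The 6 values lay close together, with only Jun knockdown replicate 3 above the rest. The means were 96.9 ± 23.6 CPM in Jun knockdown and 83.6 ± 10.7 CPM in controls (SD, n = 3 each), a log2 fold change of 0.21 (SE 0.65, 95% interval -1.26 to 1.69, edgeR adjusted p = 0.894). This interval holds no change, and also a difference of over 1 on the log2 scale in either direction. Without Jun knockdown replicate 3 the log2 fold change was -0.03.

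Pclo, which encodes Piccolo (ENSMUSG00000061601, chromosome 5, 14514918 to 14863459, plus strand), stood at 124, 159 and 229 CPM in Jun knockdown, against 148, 78 and 83.3 CPM in controls. Control replicate 1 lay within the Jun knockdown range and the other two controls below it. The log2 fold change was 0.73 (SE 0.59, 95% interval -0.6 to 2.06, edgeR adjusted p = 0.566). Bsn, which encodes Bassoon (ENSMUSG00000032589, chromosome 9, 108096022 to 108190384, minus strand), was the most uneven scaffold gene, at 56.7, 0.446 and 9.51 CPM in Jun knockdown and 8.6, 45.3 and 0.712 CPM in controls. One library of each group was near 0, with 8 counts in Jun knockdown replicate 2 and 20 counts in control replicate 3. Its log2 fold change of 0.29 (SE 1.84, 95% interval -3.87 to 4.45) took the opposite sign when Jun knockdown replicate 1 (-1.91), control replicate 1 (-0.08) or control replicate 3 (-0.29) was left out. It was 2.30 without control replicate 2.

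Rims2, the gene of the release site organiser RIM2 (ENSMUSG00000037386, chromosome 15, 39198261 to 39684372, plus strand), stood at 166, 417 and 199 CPM in Jun knockdown, against 35.9, 55.1 and 138 CPM in controls. Every Jun knockdown library was above every control, though replicate 1 of Jun knockdown was near control replicate 3. The means were 261 ± 136 CPM in Jun knockdown and 76.4 ± 54.3 CPM in controls (SD, n = 3 each), and the log2 fold change was 1.77 (SE 0.69, 95% interval 0.21 to 3.34, edgeR adjusted p = 0.24). It was 2.52 without control replicate 3 and 1.26 without Jun knockdown replicate 2. Its sign was the same under the 19 other settings tried, with adjusted p from 0.0735 to 0.472. Erc2, the gene of CAST (ENSMUSG00000040640, chromosome 14, 27622428 to 28478537, plus strand), stood at 43.9, 10.4 and 144 CPM in Jun knockdown, against 12.8, 14.7 and 0.214 CPM in controls. Jun knockdown replicate 2 lay within the control range, and control replicate 3 had 6 counts. The log2 fold change was 2.83 (SE 1.59, 95% interval -0.77 to 6.43, edgeR adjusted p = 0.398), and it was 1.54 without Jun knockdown replicate 3.

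Cacna1f, the gene of the channel pore (ENSMUSG00000031142, chromosome X, 7607083 to 7635196, plus strand), stood at 74.8, 370 and 42.3 CPM in Jun knockdown, against 48.9, 73.3 and 45.6 CPM in controls. Jun knockdown replicate 2 stood apart and the other 5 libraries lay within a narrow range. The log2 fold change was 1.54 (SE 0.89, 95% interval -0.48 to 3.55, edgeR adjusted p = 0.416). Without Jun knockdown replicate 2 it was 0.09, so the difference in means rests on that library.

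Cacna2d4 encodes the alpha-2-delta-4 subunit, which helps to bring the channel to the membrane (ENSMUSG00000041460, chromosome 6, 119236526 to 119352407, plus strand). It stood at 9.36, 85.8 and 131 CPM in Jun knockdown, against 161, 436 and 255 CPM in controls. All Jun knockdown libraries were below all controls, with Jun knockdown replicate 1 far below the other 5 libraries. The means were 75.5 ± 61.6 CPM in Jun knockdown and 284 ± 140 CPM in controls (SD, n = 3 each), with a log2 fold change of -1.91 (SE 0.88, 95% interval -3.9 to 0.07, edgeR adjusted p = 0.312). Cacnb2, the gene of the beta-2 subunit (ENSMUSG00000057914, chromosome 2, 14603088 to 14987908, plus strand), stood at 245, 304 and 103 CPM in Jun knockdown, against 96.8, 340 and 141 CPM in controls. The ranges were nearly the same, and the log2 fold change was 0.17 (SE 0.65, 95% interval -1.29 to 1.63, edgeR adjusted p = 0.913). Its sign turned without control replicate 1 (-0.18), control replicate 3 (-0.02) or Jun knockdown replicate 2 (-0.12), and it was 0.87 without control replicate 2.

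Cabp4, the gene of the channel's calcium sensor (ENSMUSG00000024842, chromosome 19, 4135425 to 4139609, minus strand), stood at 33, 38.4 and 2.33 CPM in Jun knockdown, against 119, 136 and 158 CPM in controls. The 3 controls lay close together and well above all Jun knockdown libraries, of which replicate 3 was the lowest. The means were 24.6 ± 19.5 CPM in Jun knockdown and 137 ± 19.5 CPM in controls (SD, n = 3 each), and the log2 fold change was -2.48 (SE 1.02, 95% interval -4.8 to -0.17, edgeR adjusted p = 0.267). The table lists a second Cabp4 on a patch sequence with the same values in all 6 libraries, so the reads may be split between the copies. With both copies added the log2 fold change was -2.48 (edgeR adjusted p = 0.21). Copies of equal value leave the fold change nearly as it was, so this is not a check of it.

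Elfn1, whose protein spans the cleft (ENSMUSG00000048988, chromosome 5, 139907943 to 139974722, plus strand), was the scarcest member in Jun knockdown, at 0.0673, 1.39 and 0.777 CPM, against 3.83, 8.15 and 43.5 CPM in controls. These are 1, 25 and 12 counts in Jun knockdown and 141, 742 and 1223 counts in controls. All Jun knockdown libraries were below all controls, and control replicate 3 was far above the other two controls. The log2 fold change was -4.62 (SE 1.88, 95% interval -8.88 to -0.36, edgeR adjusted p = 0.262), and it was -3.01 without control replicate 3. Elfn1 was the 1 member that passed with another tool, DESeq2 (log2 fold change -4.65, SE 1.49, adjusted p = 0.0204). DESeq2 passed 12.4% of all genes with an adjusted p, 1129 as lower and 840 as higher, against 173 and 41 with edgeR.

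**Figure D2:**
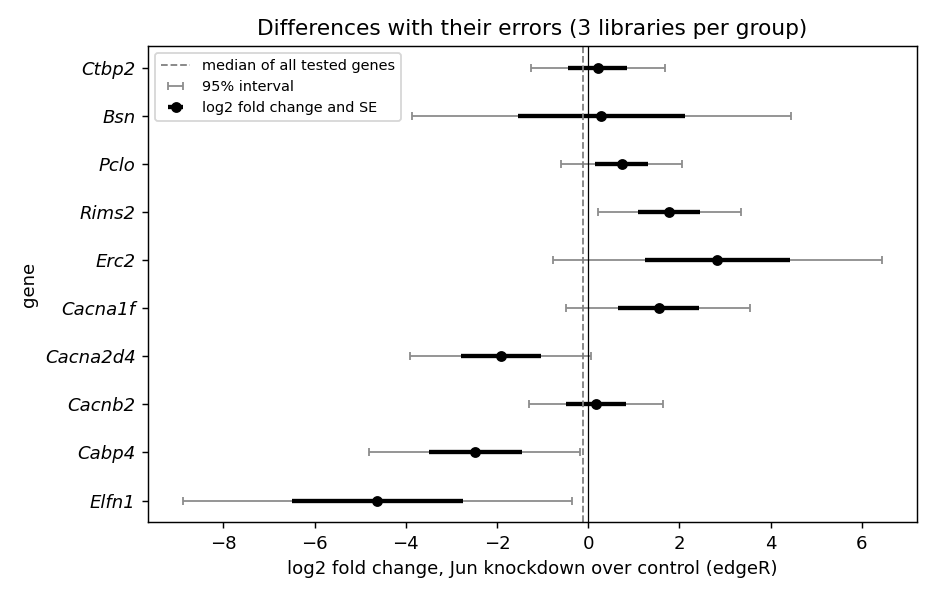
Log2 fold change of Jun knockdown over control for each gene (edgeR), with thick bars for the SE and thin bars for the 95% interval, and a dashed line at -0.12, the median of all tested genes. The intervals of Rims2, Cabp4 and Elfn1 do not reach 0, and those of Bsn, Erc2 and Elfn1 are the widest.

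Replicate scatter differed among the genes. The edgeR coefficient of variation between replicates was 64.3% for Pclo, 66.3% for Cacnb2, 68.1% for Rims2 and 70% for Ctbp2, and it was 122% for Erc2, 131% for Elfn1 and 143% for Bsn, beside a median of 115% over all tested genes.

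Levels were compared between genes as TPM (transcripts-per-million), which divides counts by annotated exonic length. In Jun knockdown the order by mean was Rims2, Cacnb2, Ctbp2, Cacna1f, Erc2, Cacna2d4, Pclo, Cabp4, Bsn and Elfn1, and in controls it was Cabp4, Cacna2d4, Cacnb2, Ctbp2, Rims2, Cacna1f, Pclo, Elfn1, Erc2 and Bsn. Only the main copy of Cabp4 was counted here. If its reads are split with the patch copy, its TPM in both groups and its place in Jun knockdown are too low. Rims2 had 181 ± 96.6 TPM in Jun knockdown, where it led, and 34.6 ± 22.1 TPM in controls. Cabp4 had 29.8 ± 25.1 TPM in Jun knockdown and 119 ± 18.6 TPM in controls, where it led, and Cacna2d4 had 36.4 ± 28.1 TPM in Jun knockdown and 108 ± 60.9 TPM in controls (SD, n = 3 each). Neighbours differed by less than the larger of their SDs in both orders, except Cabp4 and Bsn in Jun knockdown (29.8 ± 25.1 and 3.38 ± 4.64 TPM) and Pclo and Elfn1 in controls (15.0 ± 5.35 and 6.05 ± 6.74 TPM). Ctbp2 was steady beside them, at 58.9, 79.0 and 85.9 TPM in Jun knockdown and 43.2, 62.5 and 44.8 TPM in controls. Its TPM groups overlapped, as its CPM groups did.

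The transcript table shows which annotated models the estimated counts were given to. Of the 92 models, 33 had 0 counts in all libraries and 26 could be tested among 20706 transcripts. With edgeR 0 of the 26 passed (0.637% of all transcripts did), 0 as higher (0.0628%) and 0 as lower (0.575%), and 3 passed at an unadjusted p of 0.05 (15.4% did). In 6 of the 26 the groups did not overlap (30.0% of all), 2 of them higher (12.8%) and 4 lower (17.1%) in Jun knockdown. DESeq2 passed 3 models as lower (14.5% of all transcripts passed in either direction) and limma-voom 1 (7.91%). Models of one gene can share bases, and a leading model held 17.7% to 100% of its bases in common with the longest coding one, so a count given to one may come from another.

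In Ctbp2 one model led in all 6 libraries. Ctbp2-209 held 76.3%, 85.0% and 96.0% of the gene's transcript counts in Jun knockdown and 96.0%, 84.1% and 93.6% in controls. It stood at 62.3, 77.2 and 114 CPM in Jun knockdown and 77.2, 92 and 75.5 CPM in controls, which overlap (log2 fold change 0.05, SE 0.69, edgeR adjusted p = 0.981). This model begins near the start of Ctbp2-201, yet 93.5% of its 1997 bases also lie in Ctbp2-214, and 130 do not.

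Ctbp2-214, the ribbon form, received 0 counts in each Jun knockdown library, of 1340, 1701 and 1972 Ctbp2 counts. A count of 0 allows a share of up to 0.224%, 0.176% and 0.152%. In controls it received 85 of 2750 counts (3.09%, Wilson 95% interval 2.51 to 3.81%), 491 of 8934 (5.5%, 5.04 to 5.99%) and 0 of 2199 (up to 0.136%). It did not pass the filter for the edgeR test, with counts in 2 of 6 libraries. One control was at 0 like the Jun knockdown libraries, and the groups overlap. The mean share was 0% in Jun knockdown and 2.86 ± 2.75% in controls (n = 3 each), a difference of -2.86 percentage points. The two-sided exact permutation test gave p = 0.4, which is the smallest p these values allow, since 4 of the 6 shares are 0, so it cannot say whether the groups differ.

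Ctbp2-206, annotated as a target of nonsense-mediated decay, starts in the same window and shares 92.6% of its bases with Ctbp2-214, 1333 of them in the first exon of the ribbon form. It stood at 19.4, 13.6 and 4.77 CPM in Jun knockdown and 0.731, 11.4 and 4.26 CPM in controls. With its counts added, the ribbon start took 23.7%, 14.9% and 4.01% in Jun knockdown and 4.0%, 15.9% and 5.28% in controls, so the direction turned (difference 5.83 points, exact permutation p = 0.7). The sign of the difference in the ribbon form thus depended on which of these models was counted. Intervals and limits here cover counting error only.

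In Cacna1f the full-length model with the longest coding sequence, Cacna1f-202, held 0.00257%, 6.2% and 7.34% of transcript counts in Jun knockdown, against 36.3%, 75.6% and 99.1% in controls. The groups did not overlap. Of 7 members that could be compared this way, 1 separated the groups (18.1% of 5304 genes did), Cacna1f, with 1 lower (13.1%) and 0 higher (4.96%), and the median share over those genes was 38.5% in Jun knockdown and 54.9% in controls. The level of Cacna1f-202 was 0, 13.6 and 4.83 CPM in Jun knockdown and 28.5, 41.5 and 74.8 CPM in controls (edgeR log2 fold change -2.97, SE 1.97, adjusted p = 0.554). Elsewhere the counts went to Cacna1f-201, at 56.9 CPM in Jun knockdown replicate 1, and to Cacna1f-209, a decay target, at 0, 153 and 60.8 CPM in Jun knockdown and 44.1, 5.32 and 0.697 CPM in controls. Both share nearly all bases with Cacna1f-202 (100% and 99.7%).

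**Figure D3:**
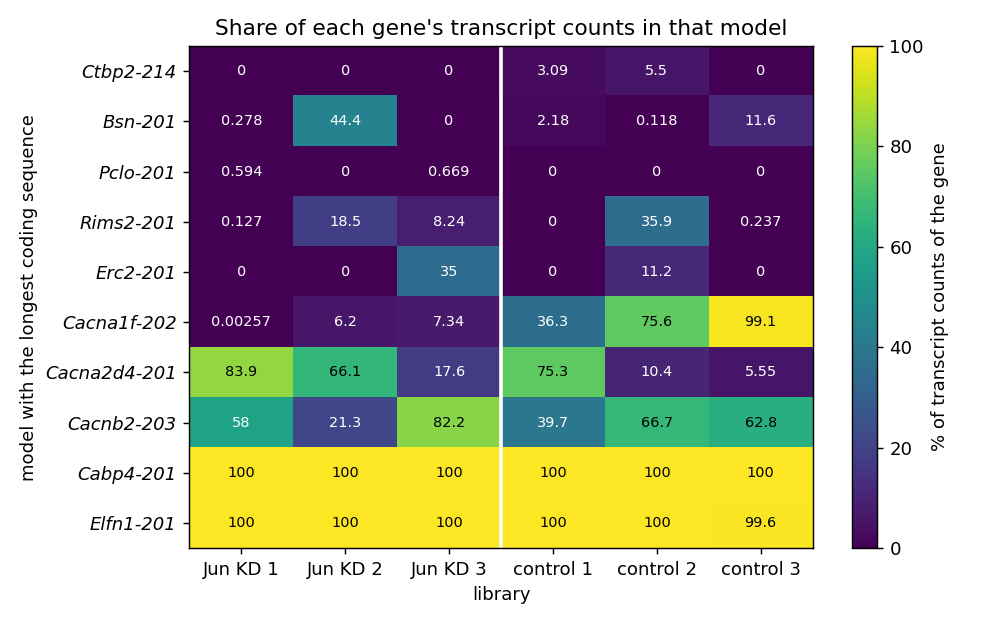
Percent of each gene's transcript counts in its model with the longest coding sequence, by library, with Jun knockdown left and control right of the white line. Cacna1f-202 is at 7.34% or less in Jun knockdown and at 36.3% or more in controls, and the long Bsn, Pclo and ribbon Ctbp2 models hold few counts in nearly all libraries.

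In Bsn and Pclo, the 2 members with the longest coding sequences, shorter models took most counts. Bsn-202 led in all 6 libraries and covers 7496 of the 15938 bases of Bsn-201, all of them shared. It begins 80.0 kb into the gene and ends within 0.001 kb of the gene's 3′ end. Pclo-204 also led in all 6, with 97.6% to 99.4% in Jun knockdown and 85.8% to 99.8% in controls, while Pclo-201 was at 0.669% or less in each library. In Bsn the long model reached 44.4% in Jun knockdown replicate 2, which rests on 4 counts.

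Rims2-204, a model of 855 coding bases that shares 19.4% of its bases with the longest coding model, led in all 3 Jun knockdown libraries and in control replicate 1. It lies at the gene's 3′ end, beginning 461 kb from the 5′ end, and stood at 266, 104 and 232 CPM in Jun knockdown, against 47.1, 1.15 and 28.7 CPM in controls. Every Jun knockdown library was above every control (log2 fold change 2.97, SE 1.21, 95% interval 0.15 to 5.79, edgeR adjusted p = 0.295). The long model Rims2-201 stood at 0.366, 47 and 22.7 CPM in Jun knockdown and 0, 12.3 and 0.22 CPM in controls, which overlap. Rims2-204 held 95.1%, 41.0% and 84.1% of the gene's transcript counts in those 3 Jun knockdown libraries.

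Erc2 had 5 different leading models in 6 libraries and Cacna2d4 had 3. The one that led in Jun knockdown replicates 1 and 3, Erc2-206, lies at the opposite end, 825 kb before the gene's 3′ end. Cacna2d4-201, the longest coding model, held 83.9%, 66.1% and 17.6% in Jun knockdown and 75.3%, 10.4% and 5.55% in controls. Cacnb2-203, the longest coding model of Cacnb2, held 58%, 21.3% and 82.2% in Jun knockdown and 39.7%, 66.7% and 62.8% in controls. Neither share separated the groups. Cabp4 had a single model in the table, and Elfn1-201 held nearly all Elfn1 counts. In all, 5 of 10 genes had the same leading model in every library.

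Models annotated as non-coding or as decay targets held 20.0%, 44.7% and 19.7% of the transcript counts of the 10 genes together in Jun knockdown, against 19.4%, 27.5% and 22.2% in controls. Jun knockdown replicates 1 and 3 lay at the level of the controls and replicate 2 above it. Over all protein-coding genes this share was 15.5 ± 1.24% in Jun knockdown and 7.43 ± 0.448% in controls (SD, n = 3 each), without overlap. The summed share of the 10 genes did overlap.

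The members with the highest fold changes, Erc2 and Rims2, were also the longest, at 856.11 and 486.112 kb from start to end, and Cabp4, with the second lowest fold change, was the shortest at 4.185 kb. Over the 10 genes the Spearman correlation of span with log2 fold change was 0.6, given as a description of points that share the same 6 libraries. Over 10652 protein-coding genes it was 0.216. The median log2 fold change was -0.75 in the quartile of genes with the shortest spans (0.204 to 10.8 kb) and 0.39 in the quartile with the longest (59.4 to 2270 kb). Cacna2d4 and Elfn1, at 115.882 and 66.78 kb, lay below the median of that last quartile. So did Bsn (0.29), Ctbp2 (0.21) and Cacnb2 (0.17), while Rims2, Erc2 and Pclo lay above it. Cacna1f, at 28.114 kb, lay above the median of its own quartile.

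**Figure D4:**
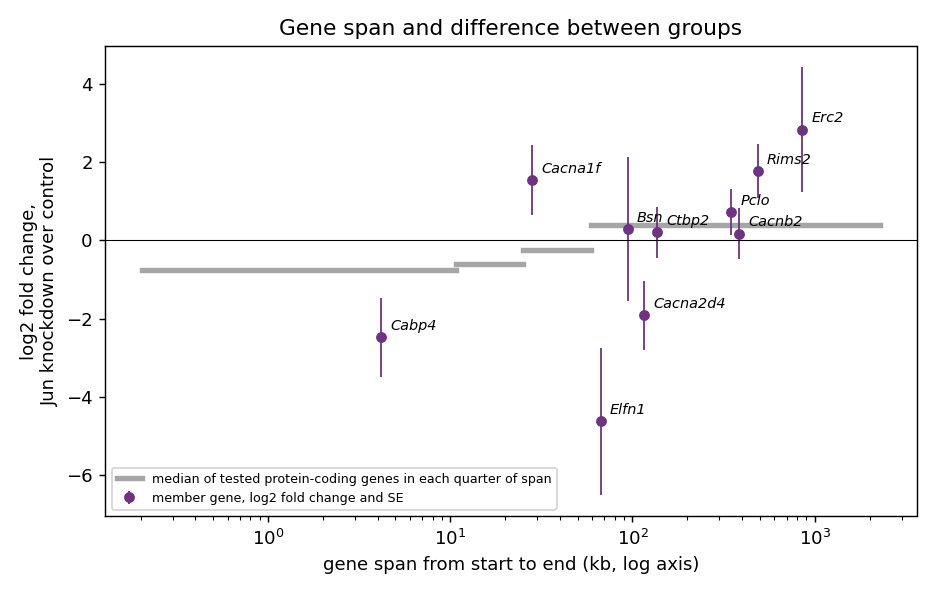
Gene span in kb (log axis) against log2 fold change of Jun knockdown over control, with SE bars for the 10 genes and grey lines at the median of tested protein-coding genes in each span quartile. The grey medians go up from -0.75 to 0.39 with span. Rims2, Erc2 and Pclo lie above the last of them, and Ctbp2, Bsn, Cacnb2, Cacna2d4 and Elfn1 below it.

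Other genes of the same synapse were taken from 3 lists. Of 26 tested genes of the active zone, ribbon and release machinery, 0 passed in either direction (1.67% of all genes did), and 14 were positive and 12 negative (median 0.06, beside -0.12 over all genes). At an unadjusted p of 0.05, 2 of them passed with edgeR (16.8% of all genes did), while 2 of 29 passed after adjustment with DESeq2 (12.4% of all genes), Rab3a among them, and 0 with limma-voom (3.45%). Rab3a, a vesicle GTPase that binds RIM, stood at 17, 39.8 and 21 CPM in Jun knockdown, against 191, 217 and 146 CPM in controls (edgeR log2 fold change -2.83, SE 0.7, adjusted p = 0.077). The table lists a second Rab3a on a patch sequence, between which and this copy reads may be split. Unc119, a lipid-binding protein of photoreceptors, stood at 232, 109 and 330 CPM in Jun knockdown, against 944, 702 and 912 CPM in controls (-1.93, SE 0.46, adjusted p = 0.0694 with edgeR). Neither group pair overlapped. Of the 26 tested genes, 3 were higher without overlap (12.6% of all genes) and 2 lower (15.7%). Ppfia2, a liprin-alpha gene, and Unc13b, a vesicle priming gene, were higher in every Jun knockdown library, by 1.24 (SE 0.58) and 1.31 (SE 0.76) on the log2 scale, and did not pass.

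Of 28 genes of other voltage-gated calcium channel subunits and calcium sensors, 14 could be tested. With edgeR 0 passed (1.67% of all genes did), and 2 did at an unadjusted p of 0.05 (16.8% of all genes). The fold change was positive in 12 and negative in 2 (median 1.19). Genes near 0 in controls, such as Cacna2d1 and Cacna1d, met the count filter through the Jun knockdown libraries alone, which fixed their sign. The 2 genes at an unadjusted p of 0.05 were Cacna2d1 and Cacna1d themselves. The split, the median and the passes of these 2 genes, with any tool, are therefore not read as a result about the list. With limma-voom 1 passed (3.45% of all genes did), Cacna2d1, and with DESeq2 4 of 18 (12.4% of all genes), Cacna2d1 and Cacna1d among them. Cacna2d1, which encodes another alpha-2-delta subunit, stood at 5.52, 18.9 and 23.5 CPM in Jun knockdown, against 0.0814, 0.0439 and 0.0356 CPM in controls. Cacna1d, the pore gene of Cav1.3, stood at 4.98, 28.3 and 2.72 CPM in Jun knockdown, against 0.163, 0.0659 and 0.178 CPM in controls. Controls were near 0 for both, with 8 counts of Cacna2d1 and 17 of Cacna1d over 3 libraries (edgeR adjusted p = 0.0644 and 0.129). Cacna1e was at 8.28, 0.391 and 2.27 CPM in Jun knockdown and 0.271, 0.912 and 0.32 CPM in controls, and Calm2, a calmodulin gene, at 2850, 2000 and 2850 CPM in Jun knockdown and 2450, 1080 and 1520 CPM in controls. Both overlapped between groups.

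Of 24 tested trans-synaptic and postsynaptic partners, 1 fell and 0 rose (1.67% of all genes passed), with 4 at an unadjusted p of 0.05 (16.8% of all genes), and 17 were positive and 7 negative (median 0.8). The gene that fell was Gnb3, a G protein beta subunit of cones and ON bipolar cells, at 257, 130 and 215 CPM in Jun knockdown, against 888, 2150 and 695 CPM in controls (edgeR log2 fold change -2.63, SE 0.51, adjusted p = 0.0444). This call ended when any of the 6 libraries was left out (adjusted p from 0.084 to 0.159), under the 3 other scalings (0.0526 to 0.0659), and with thinning (0.0636), the replicate block (log2 fold change -2.47, adjusted p = 0.135), DESeq2 (0.0654) or limma-voom (0.2). It held in 6 of the 19 other settings. Among these were edgeR with no filter beyond 1 count (adjusted p = 7.55e-07) or a minimum count of 50 (0.0425), and limma-trend (0.0283 and 0.0307). Dmd, the dystrophin gene of the photoreceptor terminal's membrane complex, stood at 1170, 960 and 941 CPM in Jun knockdown, against 462, 201 and 269 CPM in controls (1.72, SE 0.4, adjusted p = 0.0631 with edgeR). Lrit2 stood at 68.1, 61 and 208 CPM in Jun knockdown, against 455, 533 and 269 CPM in controls. Gria2, a glutamate receptor subunit of postsynaptic cells, stood at 24.4, 75 and 195 CPM in Jun knockdown, against 5.83, 1.11 and 0.178 CPM in controls. None of these 3 passed with edgeR, and none overlapped between groups. They were named for being among the 4 smallest p of the list. Of the 24 tested genes, 4 were higher without overlap (12.6% of all genes) and 2 lower (15.7%). Dmd passed in 7 and Gria2 in 2 of the 19 other settings, with the same sign in all 19.

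The tested genes whose log2(CPM + 1) over the 6 libraries was most like that of Ctbp2 were Gadd45gip1 (Pearson r = 0.995), Atp10d (0.991) and Sorcs3 (0.991). All 3 were highest in Jun knockdown replicate 3, where Ctbp2 was highest too, at 20.2, 39.5 and 34 CPM. With 6 libraries and 12815 genes searched, this is a description of likeness only.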

How the data were processed

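Estimated counts per gene and per transcript, and gene values on a scaled signal, were deposited by the authors. The submitters' processing notes name kallisto 0.44.0, Trimmomatic 0.39 and edgeR 3.28.1 in no stated role, with the genome build not given in the sources used here. Each deposited estimated count was rounded to a whole number before a count test. Gene values are not sums of transcript values (6.62% lay within 1% of the sum, among sums over 50). The scaled table, named as CPM, sums to more than that unit allows in each library and was handled as a signal scaled by the authors. No sample column was left out (0 columns). Of the gene identifiers, 51336 of 52143 were in GENCODE vM21, 98.2% of them with the same coordinates, so coordinates fit GRCm38. Of 136550 transcripts, 134551 matched.

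Genes were filtered with filterByExpr (minimum count 10), scaled by TMM, and fitted with group as the only term. The test was the quasi-likelihood F test of edgeR 4.0.16 in R 4.3.3, with p-values adjusted by Benjamini-Hochberg over every gene tested and a threshold of 0.05. The same was done for transcripts. The SE is the log2 fold change over the square root of F, and n = 3 per group. Shares of transcript counts have Wilson 95% intervals, and the limit for a count of 0 is 3 counts of the gene's total in that library. Exact permutation tests were two-sided. Library totals ran from 13211279 to 105800769 counts.

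Alternatives were other scalings and filters, DESeq2 1.42.0, limma-voom and limma-trend (limma 3.58.1; pseudocounts 0.5 and 2 on the deposited signal), thinning, leaving out each library in turn, and a block on replicate number. Replicate numbers are shared by the groups in the labels, but deviations of same-numbered libraries correlated at 0.00347, 0.0347 and -0.00965, so they were not treated as pairs. The genes and lists were chosen with earlier results of these data known. Named were all 10 genes, Jun, their transcripts with a mean of at least 1 CPM where the text turns on them, each gene's model with the longest coding sequence whatever its level (chosen after values were seen), the 4 genes of each list with the smallest p, and the 3 genes most correlated with Ctbp2. The following alternatives were chosen after seeing the data: gene counts summed from transcripts, Cabp4 with its patch copy added, and Ctbp2-206 counted with Ctbp2-214. Promoter windows of Rims2, Cacna2d4 and Cabp4 were not used here.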

Additional observations from a re-analysis of the deposited data

How the results depend on the processing

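The 95% intervals of the 10 genes bound what 3 libraries per group can show. The Jun knockdown libraries were the shallower. With every library thinned to the smallest total, 101 genes were called lower and 44 higher, with 0 of the 10 members among them. What deeper Jun knockdown libraries would give was not tested. Of all tested genes, 173 were called lower and 41 higher. The counts lower were 573 with no filter, 1129 with DESeq2, 315 with limma-voom, 512 and 475 with limma-trend (pseudocounts 0.5 and 2), 89 with upper quartile scaling, 80 with library totals, 101 with thinning, 78 with the replicate block and 462 at an adjusted p of 0.1. The counts higher were 164 with no filter, 98 at a minimum count of 50, 840 with DESeq2, 127 with limma-voom, 103 and 78 with limma-trend, 68 with library totals, 19 with the replicate block and 182 at an adjusted p of 0.1. Leaving out 1 library gave 31 to 95 lower and 5 to 17 higher. Calls were higher in 19.2% of cases, against 38.2% with upper quartile, 45.9% with library totals, 42.7% with DESeq2, 30.3% with thinning and 30.1% at a minimum count of 50. The median gene stood at -0.12 on the log2 scale, against 0.27 with upper quartile and 0.38 with library totals.

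Among the 10 genes, 0 passed under each alternative except DESeq2, where Elfn1 was the 1 lower, and 0 passed under the replicate block. DESeq2 called 3 of their transcripts lower (Cacnb2-211, Cacnb2-212 and Erc2-210) and limma-voom 1 (Cacnb2-212). All 10 kept their sign under the 3 other scalings. Bsn turned to -0.68 with limma-voom, -0.17 and -0.08 with limma-trend, -0.08 and -0.29 without control replicates 1 and 3, and -1.91 without Jun knockdown replicate 1. Cacnb2 turned to -0.09 with limma-voom, -0.18 and -0.02 without control replicates 1 and 3, and -0.12 without Jun knockdown replicate 2. Ctbp2 was at -0.03 without Jun knockdown replicate 3. Leaving out 1 library gave -1.91 to 2.3 for Bsn, -0.18 to 0.87 for Cacnb2 and -0.03 to 0.32 for Ctbp2. The ribbon-form share difference was 5.83 points with Ctbp2-206 counted, and -4.29 to -1.54 points leaving out 1 library. The cause of these changes was not tested.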
